A study of Mus musculus with 10 samples.

Results

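Among 10 lymphomas of NPM-ALK transgenic mice, 3 had a high level of Cd2 mRNA and 7 a low one, and the 3 Cd2-high tumours were compared with the 7 Cd2-low tumours over all genes. The members were chosen by measured values, the level of Cd2 on each array: an array with a log2 intensity of 9 or more for the Cd2 probe set (512 on the linear scale) was called Cd2-high, and every other array Cd2-low. Cd2 read 11.18, 11.30 and 11.52 in the Cd2-high arrays and between 6.10 and 6.90 in the Cd2-low arrays. The member nearest to the cut was thus at 11.18 above it and at 6.90 below it, and no array lay between. Since the arrays were sorted on their own values, Cd2 is no evidence here, the differences between the classes are a description of these tumours, and no p-value is given for them.

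All 10 mice carried the NPM-ALK transgene on a c57BL/6 background and developed a primary mediastinal T cell lymphoma within 4 to 5 months, and each tumour gave 1 array. WASP, the Wiskott-Aldrich syndrome protein, was intact in 5 of the mice (NPM-ALK, labelled WT) and absent in 5 (NPM-ALK/WASP-/-), and the labels call the arrays of a genotype biological replicates. Animals of both sexes were used. No source used here names the promoter that drives the transgene. The Cd2-high class holds numbers 4 and 5 of the WASP-intact mice and number 1 of the WASP-deficient mice, and the Cd2-low class the other 3 and 4. Cd2-high tumours made up 2 of 5 WASP-intact and 1 of 5 WASP-deficient tumours (Fisher's exact test, two-sided, p = 1). With 3 Cd2-high tumours no split between the genotypes could have given a p under 0.05. The test therefore cannot tell whether class and genotype are related.

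NPM-ALK is a fusion of nucleophosmin with the receptor kinase ALK. It is a constitutively active tyrosine kinase that drives anaplastic large cell lymphoma in people and signals through STAT3, ERK and PI3K. CD2 is an adhesion and costimulatory receptor of T cells and NK cells. Developing T cells pass through CD4-CD8- and CD4+CD8+ stages in the thymus: they rearrange the T cell receptor β gene with RAG1 and RAG2, test it with the pre-T cell receptor, of which PTCRA is the invariant chain, and then assemble the mature receptor with the CD3γ, CD3δ, CD3ε and CD3ζ chains.

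Median intensities per array lay between 116.7 and 122.7. The quantile normalization in RMA brings them close together, so this range is no check of array or RNA quality. The small number of arrays limits the precision. The T cell label was matched by part of the T cell genes. Cd3e lay between 12.06 and 12.59 on all 10 arrays, the adaptor gene Lat between 11.99 and 12.38, and Cd247 between 9.46 and 10.60. Cd5 was dim, between 6.57 and 7.38, where the filter on dim probe sets was at 6.35. Cd3d and Cd3g were lower on the Cd2-high arrays, as given below. Was, the gene of WASP, lay between 9.11 and 9.34 in the WASP-intact arrays and between 7.92 and 8.20 in the WASP-deficient ones. The closest pairs of arrays were WASP-intact 1 with 2 and WASP-intact 4 with 5, which the labels give as separate mice; the second pair makes up 2 of the 3 Cd2-high arrays. Xist was high in 4 arrays, of which 2 were Cd2-high, and low in 6, of which 1 was (Fisher's exact test, two-sided, p = 0.5). All 4 Xist-high arrays are WASP-intact, and WASP-intact 3 and all 5 WASP-deficient arrays are Xist-low, so that genotype and Xist level go together in 9 of the 10 arrays. All levels below are log2 intensities, and all differences are Cd2-high minus Cd2-low with genotype as a covariate, with n = 3 and n = 7 arrays.

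The classes differed over a large part of the transcriptome. Of 12670 genes, 463 (3.65%) were at least 2-fold higher in the Cd2-high tumours and 387 (3.05%) at least 2-fold lower, with no overlap between the 3 and the 7 arrays. These 850 genes (6.71%) are called past the fold below. Without a threshold of size, 3859 genes (30.5%) had classes that did not overlap. At a threshold of 4-fold, 138 genes (1.09%) were higher and 61 (0.481%) lower, and at 8-fold 53 were higher and 16 lower. The median difference over all genes was -0.01, and their middle part, between the quartiles, ran from -0.22 to 0.18. Of the sum of squares of all genes' log2 levels, 56.3% went with the class beside genotype, 6.31% with genotype beside class and 33.5% with neither.

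The 3 Cd2-high tumours resembled one another. The SD over genes of the log2 difference between a pair of arrays was 0.24 to 0.37 within the Cd2-high class, 0.18 to 0.45 within the Cd2-low class and 0.58 to 0.76 between the classes. Pairs within the Cd2-high class had 68 to 229 genes over 2-fold apart, pairs within the Cd2-low class 43 to 451, and pairs across the classes 865 to 1462. No pair within a class was as far apart as any pair across the classes, although the classes were cut on 1 gene. The low end of both within-class ranges is the closest pair named above.

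The genes highest in the Cd2-high tumours were low in every Cd2-low tumour. Sytl2, an effector of the vesicle GTPase Rab27, read 12.27, 12.15 and 11.70 on WASP-intact 4, WASP-intact 5 and WASP-deficient 1, the order kept in all lists of 3 values below. Its Cd2-low levels ran from 5.35 over a median of 5.53 to 6.58, a difference of 6.37 (SE 0.30), or 82.4-fold. Eya1, a transcriptional coactivator and phosphatase of organ development, read 12.18, 12.06 and 11.88 against 5.54 to 7.70 (median 6.43), a difference of 5.56 (SE 0.47). Igf2, the imprinted fetal growth factor, read 12.22, 12.23 and 12.35 against 6.63 to 7.85 (median 7.22), a difference of 5.14 (SE 0.18). In each of these genes the lowest Cd2-high array was above the highest Cd2-low array by over 4 log2 units.

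Transcription factors were also among the genes of largest difference. Tbx19, a T-box factor best known from pituitary corticotrophs, read 11.86, 11.52 and 11.40 against 5.81 to 6.55 (median 5.88), a difference of 5.61 (SE 0.19). Snai3, a zinc finger factor of the Snail family, read 11.28, 11.07 and 10.71 against 5.76 to 6.42 (median 6.19), a difference of 4.77 (SE 0.14). The rest of the 12 largest were 2700046A07Rik (5.48), Gm10384 (5.24), Cd2 itself (4.89), the RING finger gene Lonrf1 (4.73), the interferon-inducible Ifi203 (4.67), the PDZ and RING gene Pdzrn4 (4.59) and Myrfl (4.51). Ifi203 belongs to a family of near-identical copies, so its probes may read more than 1 gene. 2700046A07Rik was at 11.07 on all 3 Cd2-high arrays and at 5.35 to 5.80 on the Cd2-low ones. Of the 463 higher genes, 79 had a Cd2-low mean under the level of the filter on dim probe sets, so that their fold depends on the array's background.

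The genes lowest in the Cd2-high tumours were expressed in every Cd2-low tumour. Rnd2 read 6.90, 7.23 and 7.49 against 11.04 to 12.93 (median 11.92), a difference of -4.66 (SE 0.42). Macroh2a2, a histone H2A variant found on silent chromatin, read 4.70, 5.42 and 4.83 against 8.67 to 9.60 (median 9.18), a difference of -4.17 (SE 0.28). Camk1g, a calcium and calmodulin dependent kinase, read 5.24, 5.74 and 5.94 against 9.13 to 10.04 (median 9.88), a difference of -4.11 (SE 0.27). Alx4, a homeobox gene of craniofacial and limb development, read 6.71, 6.98 and 7.11 against 10.27 to 11.56 (median 10.43), a difference of -3.78 (SE 0.36). Macroh2a2 and Camk1g lay under the filter level of 6.35 on all 3 Cd2-high arrays, and Rnd2 and Alx4 above it. The rest of the 12 were the CD3 genes Cd3d (-3.78) and Cd3g (-3.74), the complement regulator Susd4 (-3.71), Bst1 (-3.52), which encodes CD157, the kinase-like Camkv (-3.49), the cGMP phosphodiesterase Pde9a (-3.39), the glutathione transferase Gsta4 (-3.38) and Cdc42bpa (-3.22), a kinase that acts downstream of Cdc42. Of the 387 lower genes, 67 had a Cd2-high mean under the filter level.

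**Figure D1:**
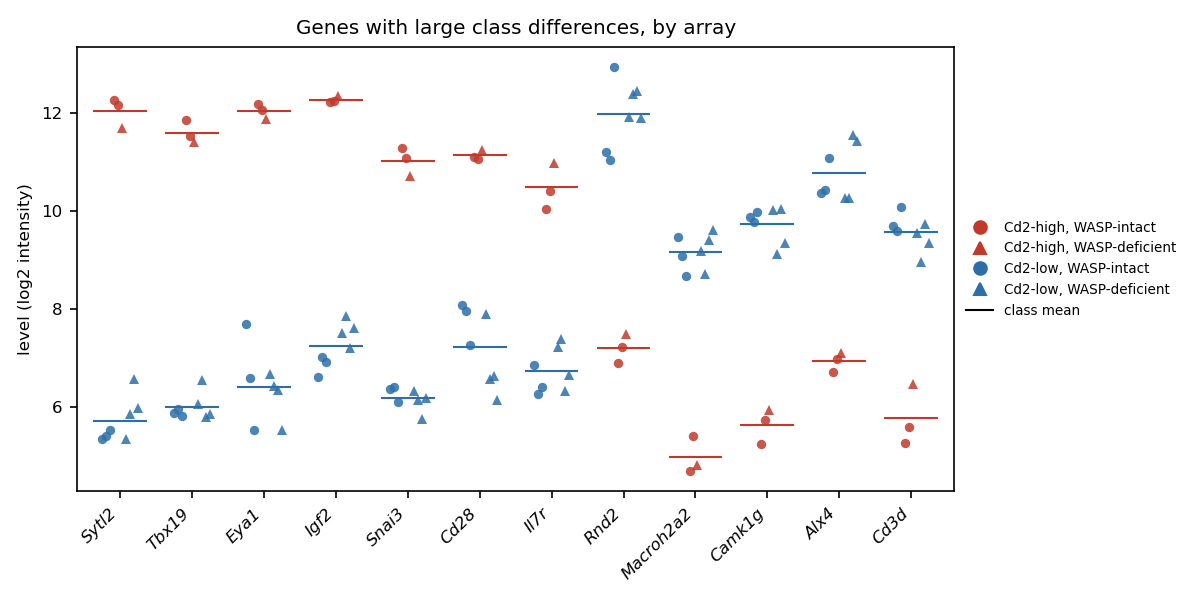
Log2 intensity of 12 genes (x axis) on each of the 10 arrays, red for Cd2-high and blue for Cd2-low, circles for WASP-intact and triangles for WASP-deficient, with a line at each class mean. The red and the blue points do not overlap for any of the 12 genes, Sytl2 at 11.70 to 12.27 against 5.35 to 6.58 and Rnd2 at 6.90 to 7.49 against 11.04 to 12.93.

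The genes of the CD3 chains divided: Cd3d and Cd3g were lower in the Cd2-high tumours, and Cd3e and Cd247 were not past the fold. Of the 10 genes of CD3 chains and their T cell receptor partners, 3 were past the fold and lower in the Cd2-high tumours (Cd3d, Cd3g and Ptcra) and 0 higher. The share past the fold was 30%, against 6.71% of all genes, and the median difference was -0.22. Cd3d read 5.26, 5.60 and 6.47 against 8.96 to 10.08 (median 9.59), a difference of -3.78 (SE 0.33). Cd3g read 6.29, 6.97 and 10.24 against 11.45 to 12.23 (median 11.71), a difference of -3.74 (SE 0.72). WASP-deficient array 1 was between the classes in Cd3g, nearer to the Cd2-low arrays than to the other Cd2-high arrays. Cd3e read 12.34, 12.29 and 12.59 against 12.06 to 12.38, a difference of 0.17 (SE 0.10), and Cd247, which encodes CD3ζ, had a difference of 0.02 (SE 0.25); for both the classes overlapped.

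Cd3d and Cd3g lie head to head on chromosome 9 of GRCm38.p6, with their starts 1355 bases apart, and Cd3e starts 27825 bases from Cd3d. The 250 bases upstream of each start are shown because these 3 neighbours divide into a pair with large differences and a gene without one. The sequences are RefSeq's, at chr9:44981536-44981785 on the plus strand for Cd3d, and on the minus strand at chr9:44980432-44980681 for Cd3g and chr9:45009612-45009861 for Cd3e. Capitals mark matches, on either strand, to any of 4 motifs: the E-box CAGNTG, the Runx core TGTGGT, the GATA site AGATAA and the TCF/LEF site CTTTGNT.
Cd3d: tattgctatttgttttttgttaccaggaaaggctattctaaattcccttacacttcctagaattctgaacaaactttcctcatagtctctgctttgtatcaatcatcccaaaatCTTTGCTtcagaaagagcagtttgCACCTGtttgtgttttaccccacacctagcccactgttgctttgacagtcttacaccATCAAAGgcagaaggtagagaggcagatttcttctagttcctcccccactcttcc
Cd3g: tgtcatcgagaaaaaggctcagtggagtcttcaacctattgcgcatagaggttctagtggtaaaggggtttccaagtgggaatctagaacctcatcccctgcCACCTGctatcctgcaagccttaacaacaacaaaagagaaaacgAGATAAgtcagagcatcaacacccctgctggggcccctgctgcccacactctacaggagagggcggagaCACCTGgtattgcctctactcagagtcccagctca
Cd3e: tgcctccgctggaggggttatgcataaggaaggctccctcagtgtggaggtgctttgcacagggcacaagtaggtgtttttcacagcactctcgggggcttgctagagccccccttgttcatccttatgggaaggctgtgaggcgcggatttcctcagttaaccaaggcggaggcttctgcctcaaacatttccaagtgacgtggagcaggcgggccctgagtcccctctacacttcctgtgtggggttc
The Cd3d window held 1 E-box and 2 TCF/LEF matches, the Cd3g window 2 E-boxes and 1 GATA match, and the Cd3e window 0 matches to any of the 4. Of all 10095 windows of this length among the genes tested, 38.6% held the E-box, 10.9% the Runx core, 5.91% the GATA site and 12.2% the TCF/LEF site. The shares were 43.1%, 14.3%, 7% and 14.6% for the 357 windows of the higher genes and 46%, 8.3%, 4.84% and 12.1% for the 289 of the lower genes. A ratio of observed to expected CpG of 0.6 or more was found in 47.1% of the windows of the higher genes, 63.3% of the lower genes and 65.9% of all genes. A match describes letters in a window and not a bound site.

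Genes of the stages of thymic development did not move as 1 block. Ptcra read 7.91, 7.99 and 9.88 against 10.87 to 11.41 (median 11.10), a difference of -2.37 (SE 0.37). In the recombination list, 0 of 9 genes were past the fold, which is near the 6.71% of all genes for a list of this length. Rag1 read 11.47, 11.50 and 11.59 within the Cd2-low range of 11.12 to 12.13, and Dntt, the terminal transferase, read 12.18, 12.23 and 11.97 against 11.17 to 12.02, so that both classes carried high levels of both. Rag2 had the largest value of that list, -1.87 (SE 0.84), but its Cd2-low arrays ran from 7.12 to 9.94 and overlapped the Cd2-high array at 7.68. WASP-deficient array 1 was the Cd2-high array closest to the Cd2-low class in both Ptcra and Rag2.

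Of 22 genes of immature CD4-CD8- thymocytes, 4 were higher and 2 lower (27.3%, against 6.71% of all genes), with a median difference of 0.11. Il7r, the receptor for the survival cytokine IL-7, read 10.05, 10.41 and 10.98 against 6.27 to 7.39 (median 6.66), a difference of 3.86 (SE 0.27). Cd44, an adhesion receptor lost and regained during T cell development, read 10.22, 10.15 and 10.43 against 7.07 to 8.27 (median 7.77), a difference of 2.49 (SE 0.30). Cd93, a lectin-like receptor of early haematopoietic cells, was higher by 2.41 (SE 0.24), and Kit, the stem cell factor receptor, by 1.24 (SE 0.28). Notch3 was lower with Ptcra, at 9.03, 8.90 and 8.85 against 9.42 to 10.40, a difference of -1.19 (SE 0.21). The list therefore holds members in both directions. Il2ra, which marks the stage of β chain rearrangement, read 6.91 and 6.84 on the WASP-intact Cd2-high arrays and 10.51 on WASP-deficient 1, against 5.47 to 8.28, so that its difference of 1.45 (SE 0.76) came with overlap.

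Among 20 genes of CD4+CD8+ thymocytes, 2 were higher and 2 lower (20%, against 6.71% of all genes), with a median of -0.16. Cd1d1, which presents lipids to NKT cells, was higher by 1.13 (SE 0.16) and Spo11 by 1.47 (SE 0.25). Ets2, an ETS family factor, was lower by 2.16 on the log2 scale (difference -2.16, SE 0.28) and Plxnd1, a semaphorin receptor of thymocyte migration, had a difference of -1.39 (SE 0.20). The coreceptor genes overlapped between the classes. Cd4 read 7.91, 7.72 and 8.49 against 7.89 to 9.61, a difference of -0.76 (SE 0.43). Cd8a read 9.0, 9.52 and 10.42 against 6.38 to 9.52, a difference of 1.58 (SE 0.78), and Cd8b1 had a difference of 0.34 (SE 0.81).

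Genes of mature T cells were higher in the Cd2-high tumours or not past the fold. Of 21 such genes, 6 were higher and 0 lower (28.6%, against 6.71% of all genes), and their median difference was 0.48. Under the filter were 5 further members, and Il7r is also on the list of immature thymocytes. Cd28, the main costimulatory receptor of T cells, read 11.10, 11.06 and 11.24 against 6.14 to 8.09 (median 7.27), a difference of 3.75 (SE 0.44). Gimap4, a GTPase of lymphocyte survival, was higher by 3.16 (SE 0.31) and Ms4a6b by 2.61 (SE 0.22). Ccr7, which directs T cells to lymph nodes and the thymic medulla, read 9.53, 9.31 and 9.46 against 7.47 to 8.10 (median 7.79), a difference of 1.65 (SE 0.14). Ctla4, the inhibitory counterpart of CD28, was higher by 1.28 (SE 0.49). Genes of T cells that leave the thymus did not follow: Klf2 had a difference of 0.04 (SE 0.28) and S1pr1 of 0.20 (SE 0.22), both with overlap.

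**Figure D2:**
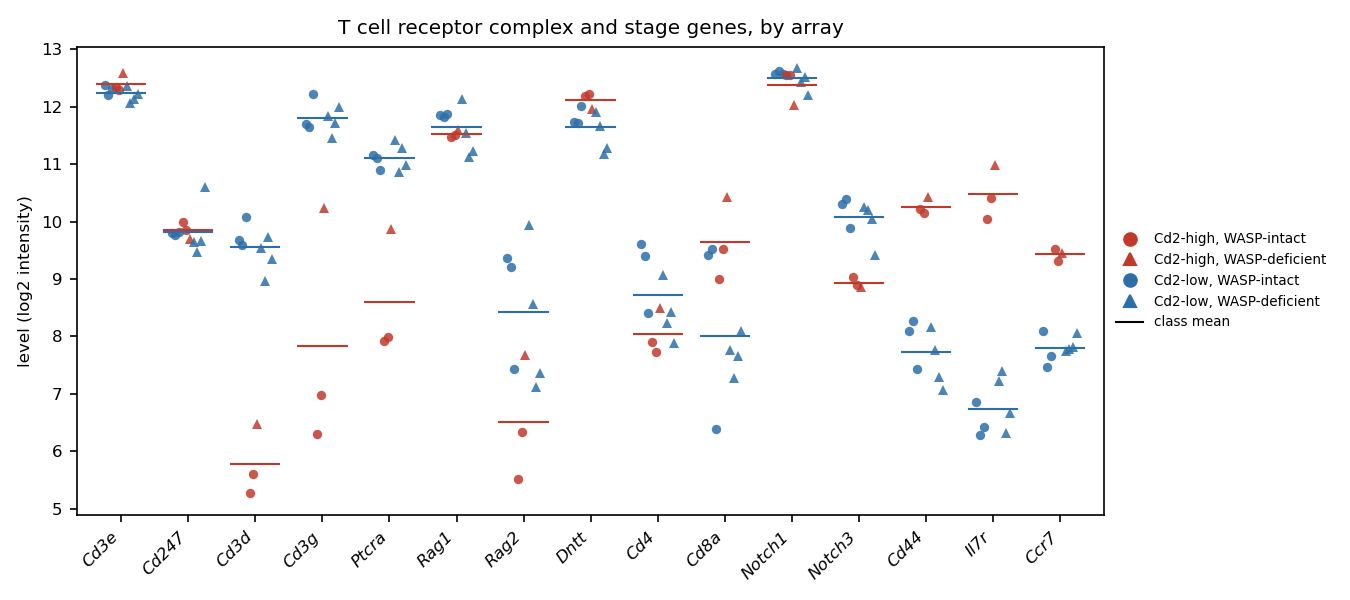
Log2 intensity of 15 genes of the T cell receptor complex and of T cell stages on each of the 10 arrays, red for Cd2-high and blue for Cd2-low, circles for WASP-intact and triangles for WASP-deficient, with a line at each class mean. The classes overlap for Cd3e and Rag1 and lie apart for Cd3d, Cd3g and Ptcra (red below blue) and for Cd44, Il7r and Ccr7 (red above blue), and the red triangle, WASP-deficient 1, lies at 10.24 in Cd3g and 9.88 in Ptcra.

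Some of the receptors that T cells use for contact with other cells were higher. With Cd2 left out, 6 of 17 costimulatory and CD2-family genes were higher and 0 lower, 11 of the 17 differences were positive, and the median was 0.57. Cd28 and Ctla4 are on this list too, and 4 further members were under the filter. Cd96, a receptor of the nectin system, read 9.81, 9.90 and 9.37 against 5.85 to 6.58 (median 6.27), a difference of 3.42 (SE 0.18). Btla, an inhibitory receptor, was higher by 2.22 (SE 0.20), and the SLAM family genes Slamf6 and Slamf1 by 1.30 (SE 0.42) and 1.24 (SE 0.33). Cd48, the ligand of CD2 in mice, went the other way, at 6.52, 6.64 and 7.13 against 7.02 to 8.43, a difference of -1.13 (SE 0.32) with overlap. Without WASP-deficient 1 the differences of Slamf6 and Slamf1 were 0.89 and 0.86, under 2-fold.

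T cell receptor signalling was the list with the most members past the fold, and also the list with the most genes tested. Of its 30 genes, 10 were higher and 0 lower (33.3%, against 6.71% of all genes). The median difference was 0.45, with 23 positive differences. The share was 35.3% for the costimulatory and CD2-family genes with Cd2 left out, and 33.3% for the cytotoxic and the plasma cell lists of 6 genes each. Btla, Cd96 and Jchain, counted in these shares, had Cd2-low means of 6.04, 6.23 and 5.78, under the filter level of 6.35. They passed the filter through the Cd2-high arrays, so the shares of their lists are in part set by the filter. The adaptors Fyb, which read 11.88, 11.62 and 11.54 against 7.30 to 10.31 (median 9.08), and Sla were higher by 2.91 (SE 0.66) and 2.21 (SE 0.49). Kinases of the pathway were Txk, higher by 2.27 (SE 0.32), and Prkcq, which encodes protein kinase C θ and read 11.36, 11.36 and 11.31 against 8.25 to 9.94, higher by 2.03 (SE 0.47). Negative regulators were among them too: Ubash3a at 2.48 (SE 0.38), Sit1 at 1.79 (SE 0.45), the ubiquitin ligase Cblb at 1.65 (SE 0.21) and the phosphatase Ptpn22 at 1.41 (SE 0.20). The adaptor genes Grap2 and Lcp2 stood at the threshold, both at 1.01, and were under it when single arrays were left out. Zap70, the kinase recruited to CD3ζ, had a difference of 0.48 (SE 0.30), under 2-fold.

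Of 26 transcription factors of the T lineage, 1 was higher and 2 were lower (11.5%, against 6.71% of all genes), with a median of 0.04. Ikzf2, which encodes Helios, read 8.92, 8.80 and 8.38 against 6.15 to 7.34 (median 6.52), a difference of 2.10 (SE 0.27). Runx3, a factor of CD8 T cells, read 6.93, 6.84 and 7.60 against 8.03 to 10.08 (median 8.88), a difference of -1.66 (SE 0.40), and Hivep3 had one of -1.23 (SE 0.30), which was under 2-fold for the mean of its probe sets. Gata3 and Bcl11b, both needed for commitment to the T lineage, differed by 0.17 (SE 0.41) and 0.18 (SE 0.13) with overlap. Of 12 measured factors known from T cell leukaemia, Lmo1 alone was past the fold (8.33%, near the 6.71% of all genes), at -1.36 (SE 0.20). The other 10 of the 22 on the list were under the filter.

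In the Notch list, 1 of 20 genes was higher and 4 were lower (25%, against 6.71% of all genes), with a median of -0.23. Notch1, the receptor that commits precursors to the T lineage, read 12.55, 12.55 and 12.03 against 12.20 to 12.67, a difference of -0.19 (SE 0.12). The ligand gene Jag2 read 7.01, 6.78 and 7.03 against 8.09 to 8.65, a difference of -1.50 (SE 0.14). The target genes Heyl and Ptcra were at -1.56 (SE 0.40) and -2.37 (SE 0.37), and the receptor gene Notch3 at -1.19 (SE 0.21). Lfng, a glycosyltransferase that modifies Notch receptors, was higher by 1.26 (SE 0.13). Other targets did not separate the classes: Dtx1 was at -1.31 (SE 0.40) and Hes1 at -0.78 (SE 0.32), both with overlap.

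Signalling below ALK was followed with 2 lists. Of 20 STAT3 and ALK target genes, 1 was higher and 0 lower (5%, near the 6.71% of all genes), with a median of 0.15. That gene was Tnfrsf8, which encodes CD30, the surface marker of anaplastic large cell lymphoma. It read 10.34, 10.31 and 10.50 against 7.96 to 9.01 (median 8.62), a difference of 1.76 (SE 0.23). Stat3 itself differed by 0.13 (SE 0.07) and Myc by -0.27 (SE 0.15), both with overlap. Of 22 ERK feedback genes, 2 were higher and 2 lower (18.2%): Spry2 at 1.34 (SE 0.13) and Jun at 1.31 (SE 0.14), against Etv5 at -2.25 (SE 0.50) and Spry4 at -1.13 (SE 0.30), the last under 2-fold without WASP-deficient 1 (-0.96). Spry2 had a Cd2-low mean of 6.09, under the filter level of 6.35, so it passed the filter through the Cd2-high arrays. Related genes stood on opposite sides, Spry2 with Spry4 and, outside the list, Etv1 with Etv5. Etv1, an ETS factor of the same subfamily as Etv5, read 9.66, 9.67 and 9.04 against 5.65 to 6.04, a difference of 3.60.

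Regulators of development and growth contributed 3 higher and 2 lower genes of 18 (27.8%, against 6.71% of all genes), with a median of 0.01. Of the 30 with a probe set, 12 were under the filter. Beside Eya1 and Igf2, Eya2 was higher, at 9.21, 9.15 and 8.60 against 6.83 to 7.44, a difference of 1.83 (SE 0.18). The Igf2 partner Igf1r, the type 1 IGF receptor, read 8.14, 7.91 and 8.44 against 9.56 to 10.61 (median 9.92), a difference of -1.79 (SE 0.22). The ligand was thus higher and its signalling receptor lower in the same tumours.

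Proliferation and housekeeping lists had 0 genes past the fold: 0 of 19 for G2 and M phase, 0 of 19 for DNA replication, 0 of 20 for ribosome biogenesis, 0 of 19 for the respiratory chain and 0 of 14 for the BCL2 family. Their medians were 0.17, -0.11, -0.12, 0.02 and -0.07. Positive differences numbered 17 of 19, 6 of 19, 3 of 20, 10 of 19 and 5 of 14, so small shifts in 1 direction are not excluded. Over all genes the share past the fold was 6.71%, and a count of 0 is near it for lists of this length. The lists of cyclins and Cdk inhibitors (7.14%), of the interferon response (8.33%) and of glycolysis and hypoxia (10%), given next, were near that share too. Mki67, which encodes the proliferation antigen Ki-67, read 11.86, 11.92 and 11.96 against 11.41 to 11.99. Of 14 cyclins and Cdk inhibitors, Ccnd2 (cyclin D2) alone was past the fold, at -1.09 (SE 0.58), and it was under 2-fold without WASP-deficient 1 (-0.88) or WASP-deficient 5 (-0.87). In glycolysis and hypoxia 2 of 20 genes were lower, the glucose transporter gene Slc2a3 at -1.35 (SE 0.40) and the oxygen sensor Egln3 at -1.12 (SE 0.27), the latter under 2-fold without WASP-intact 3. In the interferon list 1 of 12 was lower, Usp18, which removes ISG15 from proteins, at 7.94, 7.64 and 8.56 against 9.88 to 11.32 and a difference of -2.72 (SE 0.34). Of the 12 differences 2 were positive, with a median of -0.27. The list summed to 2384 to 2630 against 3181 to 4815 on the linear scale, without overlap. Usp18 is part of that sum, so it is no separate support. Cytotoxic genes were represented by 6 measured members of 18, of which Nkg7 was higher by 2.48 (SE 0.38) and Gzma, a granzyme, by 1.48 (SE 0.40), or 0.98 without WASP-deficient 1. Prf1, which encodes perforin, had a difference of 0.22 (SE 0.10). The cytotoxic list summed to 3589 to 4393 against 1201 to 2409 on the linear scale, without overlap, with the NK cell genes Ncr1 and Klrb1c under the filter. Gzma and Nkg7, already past the fold, are part of that sum, so it is no separate support.

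**Figure D3:**
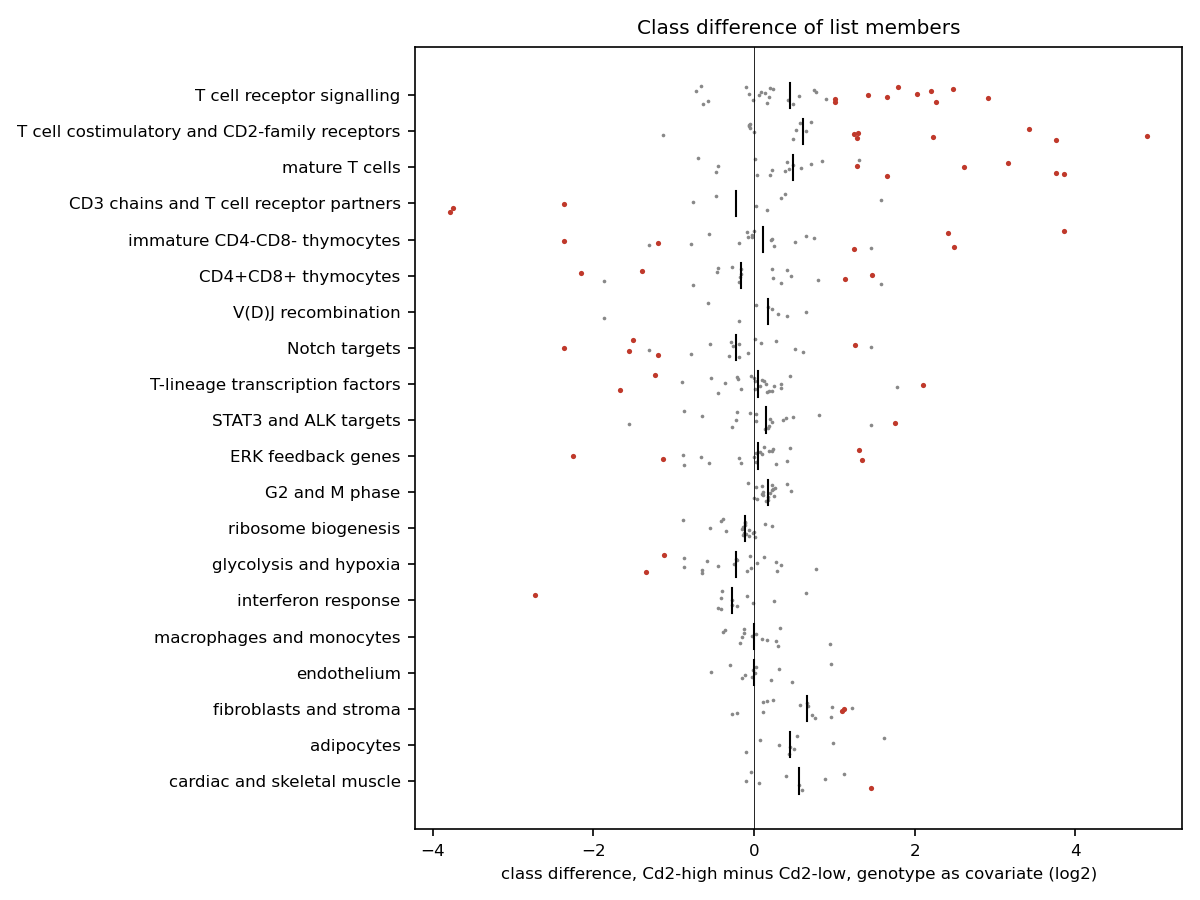
Class difference (log2, Cd2-high minus Cd2-low, genotype as covariate) of every tested member of 20 gene lists (Cd2 included), 1 point per gene, red where the gene is at least 2-fold different with no overlap of the classes and grey otherwise, with a black bar at the list's median. T cell receptor signalling has 10 red points, all to the right, the CD3 list has 3 red points to the left, and the G2 and M phase list has 0.

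The tumours also differed in genes of other cell types, and in bulk tissue fewer cells of a type and less RNA per cell cannot be told apart. Of 16 fibroblast and stroma genes, 2 were higher and 0 lower (12.5%, against 6.71% of all genes), with a median of 0.66. They were Dcn (decorin) at 1.09 (SE 0.29) and Pdgfra at 1.12 (SE 0.20), and Dcn was under 2-fold without WASP-intact 2 or 5. The summed linear level of the list was 17690 to 21520 in the Cd2-high and 11970 to 15420 in the Cd2-low tumours, which did not overlap. Dcn and Pdgfra, already past the fold, are part of that sum, so it is no separate support. The part of stroma in the class differences was not tested. Of 9 muscle genes, Acta1 was past the fold (11.1%, against 6.71% of all genes), through 1 array. It read 11.59 on WASP-intact 4, 7.19 and 7.17 on the other Cd2-high arrays and 6.92 to 7.15 on the Cd2-low ones. Without WASP-intact 4 its difference was 0.13. The muscle sum was 1002 to 6624 in the Cd2-high and 958.8 to 1112 in the Cd2-low tumours. Adipocyte genes (0 of 9 past the fold, median 0.45) summed to 2163 to 6175 against 1450 to 2683.

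For other cells the sums overlapped. Macrophage genes (0 of 14 past the fold) summed to 9706 to 12470 against 8609 to 14480, endothelial genes (0 of 12) to 3387 to 3841 against 2940 to 3995, and erythroid and platelet genes (0 of 8) to 2150 to 2409 against 1844 to 3106. In the list of MHC class II and dendritic cells 2 of 10 genes were lower (20%, against 6.71% of all genes). They were H2-DMa at -1.88 (SE 0.24) and Fscn1 at -1.32 (SE 0.39), with list sums of 2515 to 5744 against 3872 to 8603. In the thymic epithelium list 1 of 14 was lower (7.14%, near the 6.71% of all genes), the keratin gene Krt18 (7.07, 7.55 and 8.54 against 9.48 to 10.18). Its sums were 1993 to 3454 against 2591 to 4597, and the epithelial regulator Foxn1 was under the filter. Of 6 plasma cell genes, Sdc1, which encodes CD138, was higher by 1.52 (SE 0.18) and Jchain, the joining chain of antibodies, by 1.86 (SE 0.54), or 1.24 without WASP-deficient 1, with sums of 2064 to 3051 against 1868 to 2467. All 12 neutrophil genes, 7 of 11 B cell genes with a probe set (the defining Cd79a, Ms4a1 and Pax5 among them) and 6 of 9 lung epithelium genes were under the filter.

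The class difference was also taken within the WASP-intact and within the WASP-deficient tumours, which share no array. Within the WASP-intact tumours (2 against 3) 577 genes (4.55%) were higher and 434 (3.43%) lower by the same rule. Within the WASP-deficient tumours (1 against 4) 505 (3.99%) were higher and 444 (3.5%) lower. Higher in both were 368 genes, 63.8% of the first and 72.9% of the second list, and lower in both were 299, or 68.9% and 67.3%. Over all genes the differences correlated with Pearson's r of 0.84, a description across 12670 genes that are not independent. The slope of the WASP-deficient on the WASP-intact difference was 0.80 over all genes, and the median ratio was 0.96 over the genes past the fold in both, which were picked for being large in both. Opposite in direction were 4 genes, Bmpr1a, Ctse, Lipg and Mpzl2, of which Ctse passed the test described next.

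**Figure D4:**
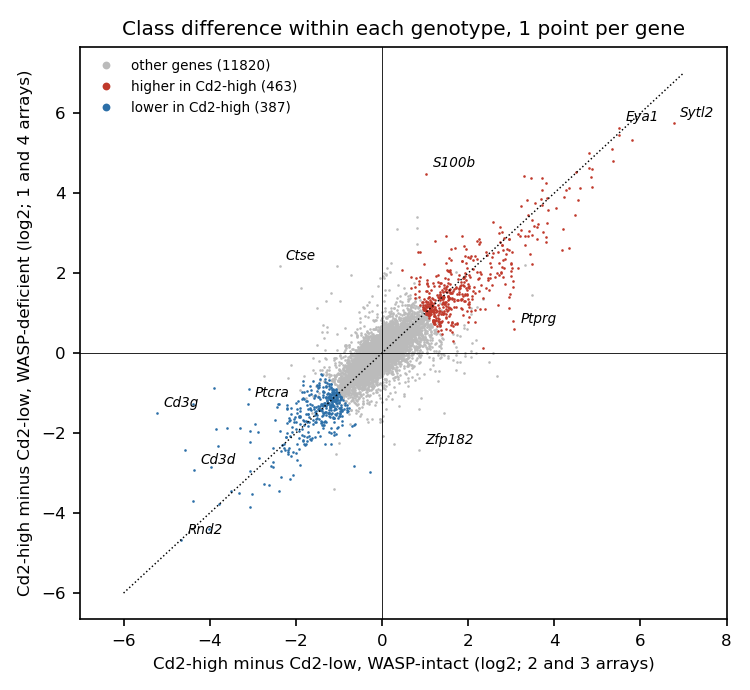
Class difference of each of 12670 genes within the WASP-intact tumours (x axis, log2, 2 Cd2-high and 3 Cd2-low arrays) and within the WASP-deficient tumours (y axis, log2, 1 and 4 arrays), red for the 463 higher and blue for the 387 lower genes of the comparison over both genotypes, with a dotted line of equal differences. Eya1 and Rnd2 lie close to the line, towards its ends. Sytl2 (6.77 and 5.75) and Cd3d (-4.35 and -2.92) are smaller in size in the WASP-deficient tumours, and Cd3g, Ptcra, S100b, Ptprg, Ctse and Zfp182 lie off the line.

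A genotype by class interaction, which sets the class difference of the WASP-deficient tumours against that of the WASP-intact tumours, was called for 13 of 12670 genes (0.103%; limma, Benjamini-Hochberg adjusted p under 0.05). It was positive for 9 genes and negative for 4, and 455 genes had an unadjusted p under 0.05. The WASP-deficient side of it rests on 1 Cd2-high array, so that the genotype and this 1 tumour cannot be told apart, and the fit assumes that such a tumour varies like the other groups. The calls are therefore read as genes in which this array stands off the WASP-intact Cd2-high arrays. It is also low in Xist, as all 5 WASP-deficient arrays are, while both WASP-intact Cd2-high arrays are high in it. Cd3g had a class difference of -5.23 in the WASP-intact and -1.51 in the WASP-deficient tumours (interaction 3.72, SE 0.39, limma adjusted p = 0.0061). Ptcra had -3.11 and -1.26 (interaction 1.85, SE 0.27). Cd3g and Ptcra were thus both less far below the Cd2-low level on WASP-deficient array 1. The call of Cd3g was lost with the replicate block only. That of Ptcra was lost with the block, the filter at the 60th percentile and the closest pairs averaged. Among the fits without 1 array, Ptcra was called only without WASP-deficient 2. The largest interaction was that of Ctse, the protease cathepsin E (interaction 4.56, SE 0.57). It read 7.18 and 7.08 on the WASP-intact and 10.94 on the WASP-deficient Cd2-high array, against 8.48 to 10.36. Its call was lost with the block, the closest pairs averaged, and without WASP-intact 4 or WASP-deficient 3.

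S100b, a calcium binding protein, was at 6.68, 7.35 and 10.43 against 5.84 to 6.10, with an interaction of 3.46 (SE 0.29, limma adjusted p = 0.0027). Ptprg, a receptor phosphatase, was at 9.19, 9.26 and 6.92 against 6.01 to 6.41, with an interaction of -2.48 (SE 0.19, limma adjusted p = 0.0024). Zfp182, a zinc finger gene, was at 8.12, 8.22 and 4.72 against 6.64 to 7.45, so that the WASP-deficient array lay below all others (interaction -3.29, SE 0.33, limma adjusted p = 0.0057). The other 7 genes were Arsi (3.04), Dgkh (1.91), Pde1c (1.68), Ankrd6 (1.51), Gm525 (1.49), Prex2 (-1.82) and Zfp827 (-2.54). With replicate number as a block limma called 0 genes, with 522 at an unadjusted p under 0.05, and without the block the count was 49 without WASP-intact 5, 21 without WASP-deficient 2 and 7 without WASP-intact 4.

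The position of WASP-deficient array 1 can be read on genes picked without it. On the other 9 arrays, 952 genes were past the fold by the same rule (538 higher and 414 lower), and in 112 of these (11.8%) WASP-deficient 1 was nearer to the mean of the Cd2-low arrays than to that of the other Cd2-high arrays. Cd3g and Ptcra are among the 112. With class in the model, genotype was called for 1 gene (0.00789%), Was, which was lower in the WASP-deficient tumours by 1.11 on the log2 scale (difference -1.11, SE 0.08, limma adjusted p = 0.00041), and 554 genes had an unadjusted p under 0.05. Xist level goes with genotype in 9 of 10 arrays, and its part in the genotype and interaction values was not tested.

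Within the classes the largest spread came from a few kinds of genes. Among the Cd2-high arrays the 6 genes of largest range were Xist (7.40), Eif2s3y (6.60), Uty (5.49), Atp2a1 (5.21), Kdm5d (4.59) and Neb (4.54). Xist, Eif2s3y, Uty and Kdm5d are sex-linked, and Atp2a1 and Neb are muscle genes that were high on WASP-intact 4 (11.86 and 10.57). Among the Cd2-low arrays they were Xist (7.31), Srsy (6.67), Eif2s3y (6.22), Uty (5.46), Ccr9 (5.10) and Nnat (4.65). Ccr9, a chemokine receptor of thymocytes, ran from 7.29 to 12.39, the highest being WASP-deficient 5, and the Cd2-high arrays at 9.57, 9.94 and 10.36 lay inside that range. The median SD of the genes past the fold was 0.17 within the Cd2-high and 0.28 within the Cd2-low class.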

How the data were processed

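Probe set levels of 34760 probe sets on 10 arrays, 1 per mouse, were used as deposited: linear intensities that the authors made with RMA, per the submitters' processing notes (software, version and annotation not given in the sources used here). RMA corrects background, quantile normalizes the arrays and summarises probes, so differences in total RNA between arrays cannot be read from them. The values ran from 3.309 to 15587.9, and their log2 was taken. The 40th percentile of probe set means (log2 6.35, linear 81.7) was the filter on dim probe sets, applied to the mean over all arrays. Of 34760 probe sets 21640 had 1 gene symbol in the platform's annotation, 1321 had several and 11799 were not named; gene IDs of 21553 matched RefSeq (GRCm38.p6). The probe set of highest mean was kept per gene, which left 12670 genes. A gene filtered on its mean over all arrays can be missing where only 3 arrays express it. Tcf7, on the list of genes to name, has no value here because no probe set carries it as its single symbol.

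Classes were set from the log2 level of the single Cd2 probe set, with a cut at 9. The class difference is the class coefficient of limma 3.58.1 (lmFit) in R 4.3.3 with genotype as covariate; a gene is past the fold with an absolute difference of at least 1 on the log2 scale and no overlap of the classes. No p-value is given for it. The interaction and the genotype effect with class as covariate were tested with lmFit and eBayes, two-sided, with Benjamini-Hochberg adjustment over all 12670 genes and a threshold of 0.05. Replicates are separate mice per the labels, so the p-values of the genotype effect measure spread between animals within the classes. Those of the interaction do so only in part. The WASP-deficient Cd2-high group has 1 array, and its spread is taken from the other groups. Class membership was compared with Fisher's exact test. The fits were tested on simulated data.

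The classes, markers and 38 gene lists (636 symbols) were chosen with earlier results of these data known. The genes named are the markers, the 12 largest differences per direction, the list members past the fold (up to 8 per list, otherwise the 2 largest, not all of which are named), a set of T cell and control genes, the genes called by the tests, and the 6 of largest range per class; other genes were named after their values were seen. Promoters are RefSeq's 250 bases before each start. Alternatives changed the covariates, the filter, the centring, the probe set rule, array weights, eBayes with trend, the fold threshold, a replicate block, the averaging of the closest pairs, and left out each array in turn. No per-sample column was left unused (0). Plots were made in Python 3.11.15 (matplotlib 3.10.9).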

Additional observations from a re-analysis of the deposited data

Results flagged for a closer look

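In 12 of 136 genes examined, 1 Cd2-low array lay far from the other 6 in a log2 level, by Dixon's test, which flags about 1 in 20 groups by chance. WASP-deficient 5 stood apart most often: it was high in Lonrf1 (6.812), Cd247 (10.6), Klf2 (8.817), Gata3 (11.8) and the muscle gene Neb (6.74), and low in Bst1 (9.875). WASP-deficient 3 was high in Tbx19 (6.554) and low in Zfp182 (6.639). WASP-deficient 4 was low in Myc (11.17) and Arsi (10.65), WASP-intact 3 was high in Ctse (10.36) and WASP-intact 1 was low in Pde1c (5.678). The classes stayed apart in Tbx19, Lonrf1, Bst1, Arsi and Pde1c and overlapped in the other 7 genes.

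Limma's interaction of genotype and class was called for 13 genes; it rests on 1 WASP-deficient Cd2-high array and was called for 0 genes with the replicate block. The interaction (log2, class difference in WASP-deficient minus that in WASP-intact tumours) was positive for Ctse (4.559), Cd3g (3.716), S100b (3.457), Arsi (3.037), Dgkh (1.913), Ptcra (1.846), Pde1c (1.675), Ankrd6 (1.513) and Gm525 (1.492). It was negative for Zfp182 (-3.292), Zfp827 (-2.539), Ptprg (-2.478) and Prex2 (-1.821).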

How the results depend on the processing

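The 850 genes past the fold kept their sign under every alternative that measured them, 587 of them with the filter at the 60th percentile and all 850 under the others. They were picked for classes that do not overlap, so under most alternatives the sign could hardly change. The kept sign is therefore no check of these genes. Counts of higher and lower genes were 283 and 304 with that filter, 138 and 61 at 4-fold, 549 and 391 without a filter, and 449 to 538 and 380 to 414 when 1 array was left out. Adding the Xist level (452 and 381) or averaging the closest pairs (462 and 393), both chosen after seeing the data, moved them little. Arrays of the same replicate number had correlated deviations of 0.01 to 0.43 beside class and genotype, 1 of 5 under 0.1, so pairing by number was not established; with the replicate block the counts were 457 and 428. The 13 interaction genes depended on the setting: 40 without a filter, 4 with the stricter filter, 74 with array weights, 13 with trend, 0 with the replicate block (522 at an unadjusted p under 0.05), 6 with the closest pairs averaged and 7 to 49 without 1 array. Without WASP-deficient 1 it could not be fitted, and the within-genotype difference of that genotype has no Cd2-high array left. Genes called for genotype were 1 under each setting and 1 to 4 without 1 array (4 without WASP-intact 3 or WASP-deficient 1, 2 without WASP-intact 2, WASP-deficient 2 or WASP-deficient 4), with Was among them each time. Within genotypes the counts over the arrays left out were 552 to 616 and 422 to 470 in WASP-intact and 482 to 541 and 420 to 506 in WASP-deficient tumours. Among the genes called for the interaction without WASP-intact 5 were the muscle genes Acta1, Atp2a1 and Neb, which were high on WASP-intact 4. The genes called for genotype without WASP-intact 3 were Was and the sex-linked Xist, Kdm5d and Uty. The causes of the shifts between settings were not tested. Folds against a dim class are limited by background, and 3 Cd2-high arrays, 2 of them a close pair, limit what the class describes.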

Other observations

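Genes past the fold sometimes had a neighbour on the chromosome that differed the same way. Of 12642 adjacent pairs of tested genes, 62 were both higher in the Cd2-high tumours, 35 both lower and 15 opposite, and the same way were 0.767% of pairs. Beside Cd3d with Cd3g they include the costimulatory pair Cd28 (3.75) and Ctla4 (1.28), the receptor kinases Pdgfra (1.12) and Kit (1.24), Agmo (4.40), which encodes alkylglycerol monooxygenase, with the ETS factor Etv1 (3.60), and Vat1 (-2.18) with Rnd2 (-4.66). Adjacent genes can share probes or transcripts that run from one into the next, which these values do not separate, and no test was made.

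Of 7099 probe sets above the filter with several gene symbols or none, 56 (0.789%) were higher and 78 (1.1%) lower by the same rule, so that among them the lower ones were the more numerous, and they name no gene here.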
